A study of Mus musculus with 10 samples.

Results

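The cytosolic ribosomal proteins are the protein parts of the 2 ribosomal subunits, and their genes were examined here in single-cell transcriptomes of embryonic mouse back skin. Members were all genes whose symbols start with Rpl or Rps followed by a number, together with Rplp0, Rplp1, Rplp2 and Rpsa. The ribosomal S6 kinases, which carry similar symbols, and rows whose symbols end in a pseudogene suffix were left out. The gene table of the E15.5 and E17.5 libraries listed 83 such genes of 32285 (51 of the large and 32 of the small subunit). The table of the E16.5 libraries listed 84 of 27998, because it also held Rpl6l, whose symbol has no such suffix although GENCODE annotates it as a processed pseudogene. No measured value entered this choice.

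Ribosomal protein mRNAs are among the most abundant messages of a growing cell, and their products are assembled with ribosomal RNA in the nucleolus. Many of them begin with a tract of pyrimidines at the 5′ end, through which mTORC1 signalling controls their translation. When assembly is disturbed, the large-subunit proteins Rpl5 and Rpl11, bound to 5S RNA, inhibit Mdm2 and so stabilise p53. In the epidermis, dividing basal progenitors depend on high protein synthesis capacity.

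Dorsal skin of mixed C57Bl/6J and CD-1 background was dissociated whole, and 10 libraries were made with the droplet-based 10x 3′ assay, in which each captured mRNA molecule is counted once through a unique molecular identifier (UMI). The E15.5 set held control libraries 2 and 3 with MOF cKO libraries 5 and 6. The E16.5 set held libraries 1 and 2 of either genotype. The E17.5 set paired a single control with a single QPC cKO library. MOF cKO denotes MOFfl/fl/K14Cre and QPC cKO denotes QPCfl/fl/K14Cre. The Krt14-Cre driver acts in epithelial cells and leaves the dermis untargeted, and controls were littermates labelled only Control, wild-type or heterozygous per the methods. MOF, encoded by Kat8, is the acetyltransferase for lysine 16 of histone H4. QPC, encoded by Uqcrq, is a subunit of mitochondrial complex III. The study's staining described the epidermis behind the library MOF cKO 6 as mosaic for the deletion.

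Cells were kept with more than 1000 and fewer than 6000 genes and less than 10% mitochondrial UMIs, which left 716 to 10653 cells per library. Epithelial-gated cells carried at least 10 UMIs of the basal keratins Krt5 and Krt14. Fibroblast-gated cells carried at least 30 UMIs of the collagens Col1a1 and Col3a1 and fewer than 10 keratin UMIs. Gated cells carry these genes by definition, so their detection is no check on cell identity. The MOF cKO libraries at E16.5 held only 30 and 39 epithelial-gated cells, against 266 and 512 in the controls. Sums over cells of 1 library were the unit of every test, and levels are given as UMIs per 1000000 UMIs of the gated cells (UPM). With 2 libraries per group, p-values measure only the spread between these libraries.

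Several libraries stood apart. Among epithelial-gated cells, 41.9% in the E17.5 control library and 28.9% in E16.5 control 1 also carried collagen UMIs at the fibroblast limit, against 0% to 13.0% in the other 8 libraries. The 2 E17.5 libraries shared 1702 cell barcodes, 20.7% of the smaller library, whereas any other pair of libraries shared at most 0.746%. The main counts and shares that rest on these libraries are given with and without the cells or library in question.

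The targeted genes were read first. In epithelial-gated cells at E15.5, Kat8 was at 13.0 and 14.0 UPM in the controls and at 13.0 and 10.0 UPM in the libraries labelled MOF cKO 5 and 6, so its 3′ tag count did not separate the groups (log2 fold change −0.08 ± 0.27 (SE), edgeR adjusted p = 0.895). At E16.5 it was at 17.6 and 14.8 UPM in the controls and 8.7 and 3.7 UPM in MOF cKO, the latter from 5 and 3 UMIs (log2 fold change −0.85 ± 0.55, adjusted p = 0.343). In the untargeted fibroblast-gated cells Kat8 was at 9.18 and 9.62 UPM in E15.5 controls and 6.83 and 5.98 UPM in MOF cKO (−0.58 ± 0.12, adjusted p = 0.194). At E16.5 it was at 9.60 and 8.23 UPM there against 2.81 and 5.39 UPM (−0.95 ± 0.31, adjusted p = 0.136), and the difference between the 2 cell types was −0.01 ± 0.81 (adjusted p = 1). The lower values in MOF cKO were thus not particular to the targeted cells. Whether the counted 3′ end lies inside the deleted part was not given in the sources used here. Uqcrq was at 106 UPM in the E17.5 control and 43.9 UPM in QPC cKO, and at 130 and 36.7 UPM without cells carrying 10 or more collagen UMIs. Directions at E15.5 and E16.5 below therefore refer to libraries by their labels.

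Start sites of the members are shown first, since the pyrimidine tract is the sequence feature the family is known for. RefSeq start sites on GRCm38.p6 were found for 63 of the 84 members. In the window from 10 bases before to 20 bases after the start, on the gene's own strand, 29 of these 63 (46.0%) held a run of at least 7 bases that were all C or T, against 17.9% of the windows of 27025 genes. The windows below belong to members the results turn on, and capitals mark the longest run of C and T.
Rpl15 (chr14:18270967-18270996, minus strand): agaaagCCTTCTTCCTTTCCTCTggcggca
Rpl13a (chr7:45128726-45128755, minus strand): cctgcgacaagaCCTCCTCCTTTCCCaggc
Rpl22l1 (chr3:28805498-28805527, plus strand): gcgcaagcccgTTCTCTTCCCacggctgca
Rpl12 (chr2:32961702-32961731, plus strand): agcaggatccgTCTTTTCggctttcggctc
Rps27l (chr9:66946076-66946105, plus strand): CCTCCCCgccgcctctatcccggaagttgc
Rpl39l (chr16:10170218-10170247, plus strand): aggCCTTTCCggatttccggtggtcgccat
Rpl22 (chr4:152325716-152325745, plus strand): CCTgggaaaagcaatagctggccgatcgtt
The run was 17 bases long in Rpl15 and 14 in Rpl13a, and only 3 in the annotated window of Rpl22. A run in such a window is a description of the letters, and the annotated start may differ from the start used in skin.

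Ribosomal protein UMIs made up between 16.8% and 35.8% of all UMIs in the gated cells. In control epithelial-gated cells the summed share was 28.6% and 29.2% at E15.5, 23.0% and 31.3% at E16.5, and 19.9% at E17.5. In control fibroblast-gated cells it was 21.7% and 21.8%, 22.1% and 25.3%, and 16.8%. Every library, of either genotype, had the higher share in its epithelial-gated cells, by 0.917 percentage points in E16.5 control 1 and by 3.10 to 14.3 points in the other 9. Without epithelial cells carrying 10 or more collagen UMIs, the gap was 2.73 points in E16.5 control 1 and 5.72 points in the E17.5 control, and it was 0.713 points in E16.5 MOF cKO 2, where 20 cells remained. The assay version differed between the stages per the labels, and the E16.5 libraries also had another gene table, so stage and processing cannot be told apart. A share is relative, and more ribosomal protein mRNA or less of other mRNA per cell cannot be told apart.

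**Figure D1:**
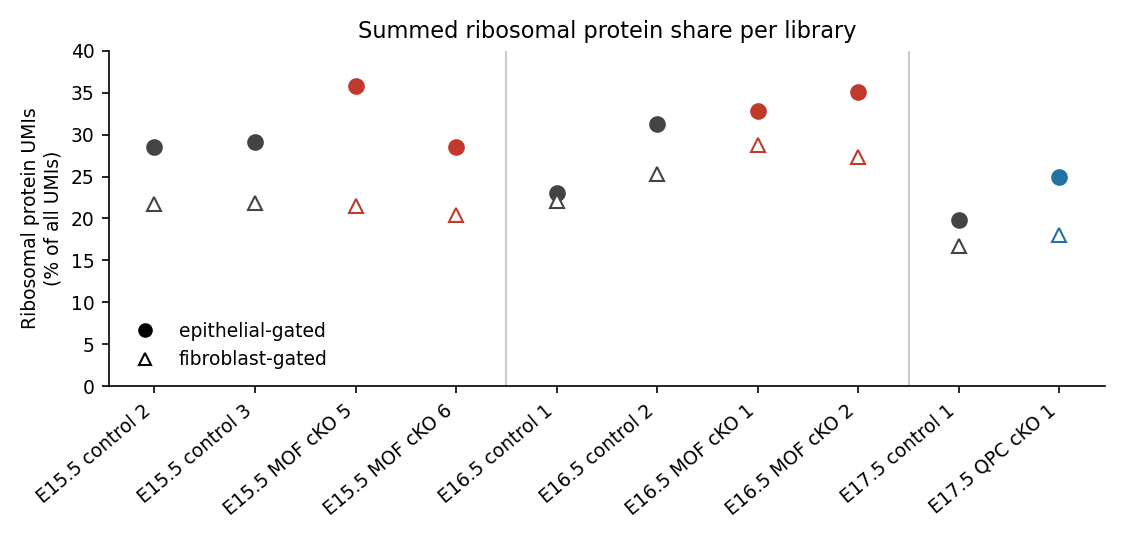
Summed share of ribosomal protein UMIs (y axis, % of all UMIs of the gated cells) in each of the 10 libraries (x axis), with filled circles for epithelial-gated and open triangles for fibroblast-gated cells, and controls in grey, MOF cKO in red and QPC cKO in blue. The circle lies above the triangle in every library, and MOF cKO 5 at E15.5 (35.8%) lies above its stage's controls (28.6% and 29.2%) while MOF cKO 6 (28.5%) does not.

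The comparison of the 2 cell types was tested in the 5 control libraries of E15.5, E16.5 and E17.5, with the library as a block. Of 81 members tested, 56 were higher in epithelial-gated cells, where 30.5% of all 14505 genes were called in that direction, and 2 were lower, where 30.8% of all genes were (edgeR quasi-likelihood test, Benjamini-Hochberg adjusted p under 0.05). The members' median log2 fold change was 0.36, beside 0.02 over all genes. The largest called differences belonged to large- and small-subunit proteins alike. Rpl3, a core protein near the peptidyl transferase centre, was higher by 0.52 ± 0.11 (log2, SE; adjusted p = 0.00856). Rps7, one of the small-subunit proteins mutated in Diamond-Blackfan anaemia, was higher by 0.51 ± 0.11 (adjusted p = 0.00935), and Rpl5 was higher by 0.49 ± 0.10 (adjusted p = 0.00775). Rpl10a and Rps3a1 were higher by 0.49 and 0.47 (adjusted p = 0.0122 and 0.0121). The count of higher members was 14 without E15.5 control 2, 16 without either E15.5 control 3 or E16.5 control 2, 39 without the E17.5 control and 72 without E16.5 control 1. In the same fits 24.1%, 24.3%, 26.2%, 28% and 31.1% of all genes were called higher, so that without E15.5 control 2, E15.5 control 3 or E16.5 control 2 the members' share (17.3% to 19.8%) was below that of all genes. Of lower members, 1 was called without any 1 of the E15.5 or E16.5 controls, and 2 without the E17.5 control. Among all genes, 3334 of 13919 were called lower without E15.5 control 2 and 3398 of 13967 without E15.5 control 3. Without E16.5 control 1, E16.5 control 2 or the E17.5 control, 4254 of 14720, 3757 of 14830 and 4500 of 13998 were. The count of higher members was 67 (82.7%, beside 33.5% of all genes) when epithelial cells with 10 or more collagen UMIs were left out.

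The 2 members that were lower in epithelial-gated cells are both duplicated paralogues. Rpl39l, a paralogue of the tunnel-exit protein Rpl39 best known from the testis, was at 107 and 98.3 UPM in control fibroblast-gated cells at E15.5, at 116 and 115 UPM at E16.5 and at 65.3 UPM at E17.5. In the epithelial-gated cells of the same libraries it was at 5.3, 4.9, 36.3, 6.6 and 29.1 UPM, below the fibroblast-gated cells in each of the 5, and its log2 fold change was −3.07 ± 0.59 (adjusted p = 0.00559). The 2 highest of these epithelial values came from the 2 libraries in which 28.9% and 41.9% of the epithelial-gated cells carried collagen at the fibroblast limit. Without cells carrying 10 or more collagen UMIs, epithelial Rpl39l was at 0.492, 0.539, 0.51, 2.45 and 1.16 UPM, from 20, 28, 1, 15 and 32 UMIs. Its partner Rpl39 was at 2001 to 3393 UPM in the same fibroblast-gated cells, so that 2.46 to 5.80 Rpl39l UMIs were counted per 100 of Rpl39. Each UMI counts 1 mRNA 3′ end whatever the length of the mRNA.

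Rps27l, a paralogue of Rps27 and a known p53 target, was at 346, 362, 328, 510 and 278 UPM in control epithelial-gated cells (E15.5 control 2 and 3, E16.5 control 1 and 2, then E17.5) and at 462, 463, 412, 731 and 248 UPM in fibroblast-gated cells. Its log2 fold change was −0.24, and its adjusted p of 0.0463 was close to the threshold. It was higher in the fibroblast-gated cells of the 4 libraries of E15.5 and E16.5, and lower in those of E17.5. Among the other paralogues, Rpl7l1 was higher in epithelial-gated cells in each of the 5 controls (90.6, 95.1, 136, 111 and 84.3 UPM against 73.0, 76.6, 125, 98.6 and 66.3 UPM). The muscle paralogue Rpl3l and the testis paralogue Rpl10l were at or near 0 UPM in every library. Rps4l was in neither gene table.

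**Figure D2:**
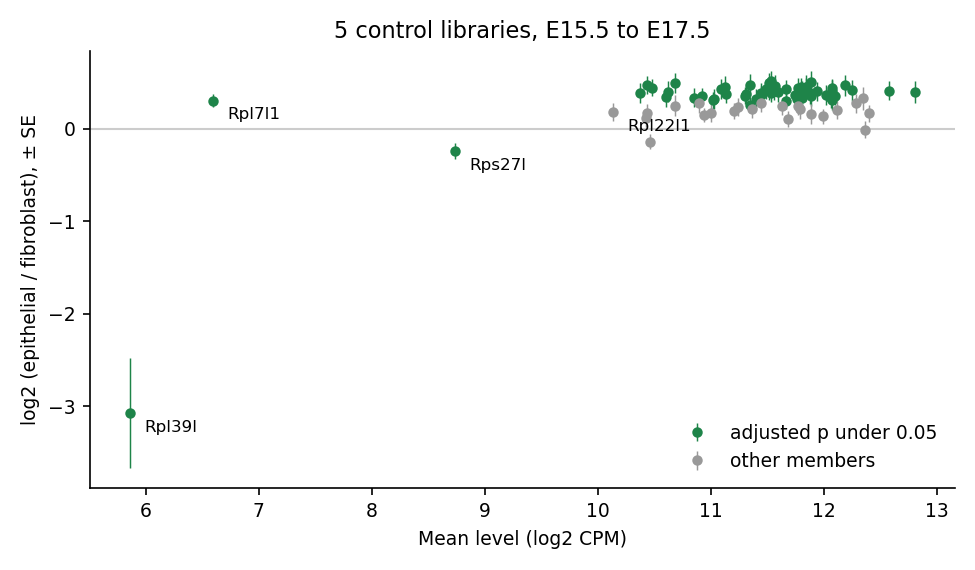
Difference between epithelial- and fibroblast-gated cells of the 5 control libraries (y axis, log2 fold change with its SE) against mean level (x axis, log2 counts) for each of 81 members, with members past an adjusted p of 0.05 in green. Most members lie between 0 and 0.52, whereas Rpl39l lies at −3.07.

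In control epithelial-gated cells Rpl13, Rplp0, Rps2 and Rps4x were among the members of highest mean UPM over the 5 controls, in this order. Rpl13, a large-subunit protein, was at 9773 and 9491 UPM at E15.5, at 6291 and 8069 UPM at E16.5 and at 5614 UPM at E17.5. Rplp0, which anchors the stalk that recruits elongation factors, was at 5443, 5269, 7043, 5415 and 4759 UPM in the same order of libraries, and Rps2, a protein of the mRNA entry channel, at 5403, 6221, 5986, 5471 and 4412 UPM. Rps4x, whose gene lies on the X chromosome, was at 5656, 5557, 5576, 5701 and 4346 UPM. The ranges of Rplp0, Rps2 and Rps4x overlapped.

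The question of the MOF comparison was what loss of the acetyltransferase in the epithelium changes in these cells. At E15.5 no member passed the edgeR test in epithelial-gated cells. None of the 81 members was called, and 0% of 14625 genes were. At an unadjusted p under 0.05 there were 0 members and 1360 genes, and DESeq2 called 0 members, with 85 genes higher and 55 lower. The fold changes nevertheless leaned to one side, with 79 of 81 above 0 and a median of 0.31 (log2) beside −0.01 over all genes. When library size alone was used for scaling, 74 of 81 were above 0 and the median was 0.15, beside −0.13 over all genes. The 14 genes of the dissociation response had a median of −0.57 in this comparison, with 0 called. Per 1000000 UMIs that were not ribosomal protein they summed to 12177 to 17008 in MOF cKO and 21772 to 24148 in the controls, over cells of low and high ribosomal share taken apart, and their part in the result was not tested.

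The lean came from 1 of the 2 libraries labelled MOF cKO. The summed share was 35.8% in MOF cKO 5 and 28.5% in MOF cKO 6, against 28.6% and 29.2% in the controls, so the groups overlapped (32.1% ± 5.16 and 28.9% ± 0.430, SD, n = 2 each). Without MOF cKO 5 the members' median log2 fold change was −0.04 and 0 were called. Without MOF cKO 6 it was 0.58 and 76 of 81 were called higher, with the lone MOF cKO library assumed to vary like the controls. In that fit 20.8% of all 15415 genes were called higher and 24.7% lower.

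Among the named members, Rpl13a, a large-subunit surface protein, was at 3631 and 3691 UPM in the controls and at 5361 and 4548 UPM in MOF cKO 5 and 6. Both MOF cKO libraries lay above both controls (log2 fold change 0.58 ± 0.23, adjusted p = 0.503). Rpl12, at the base of the stalk, was at 4003 and 4112 UPM in the controls and at 6039 and 4586 UPM in MOF cKO (0.55 ± 0.28, adjusted p = 0.503). Rpsa, a small-subunit protein related to the laminin receptor, was at 5074 and 5014 UPM against 6894 and 5686 UPM (0.47 ± 0.25, adjusted p = 0.504). Rps2 was at 7228 and 6872 UPM in MOF cKO 5 and 6. These 4 genes were chosen for their small p in this same comparison, which favours groups that lie apart, and the test did not call any of them.

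Among the stalk proteins, Rplp1 was at 4096 and 4433 UPM in the controls and 5798 and 4612 UPM in MOF cKO 5 and 6. Rplp0 was at 6854 and 5086 UPM and Rplp2 at 3185 and 2581 UPM in MOF cKO, so that MOF cKO 6 lay among or below the controls for both. Of the 5S RNA partners, Rpl5 was at 2345 and 2388 UPM in the controls and 2700 and 2482 UPM in MOF cKO. Rpl11 was at 4037 and 4188 UPM in the controls and 5337 and 4039 UPM in MOF cKO. MOF cKO 5 was thus the highest library for each of these 5 genes, and MOF cKO 6 was not separated from the controls for Rplp0, Rplp2 and Rpl11.

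In fibroblast-gated cells at E15.5, which the Cre driver does not target, 0 of 81 members were called, as were 0% of 16268 genes (edgeR). At an unadjusted p under 0.05 there were 2 members and 2538 genes, and DESeq2 called 1 member lower (1.23%), where it called 1.59% of all genes lower. The summed share was 21.7% and 21.8% in control libraries, 21.5% in MOF cKO 5 and 20.4% in MOF cKO 6. The members' median was −0.09 with 7 of 81 above 0 (13 of 81 with library size alone), and it was −0.01 without MOF cKO 6. The smallest p belonged to Rps27l, at 389 and 393 UPM in MOF cKO against 462 and 463 UPM in the controls (−0.27 ± 0.06, adjusted p = 0.201). In the epithelial-gated cells of the same libraries, Rps27l was at 550 and 400 UPM in MOF cKO against 346 and 362 UPM (0.58 ± 0.27, adjusted p = 0.503). The test of the difference between the 2 cell types gave 0.78 ± 0.24 for Rps27l (adjusted p = 0.589). It called 0 of 81 members at E15.5, and 0% of 16479 genes (1 member and 1193 genes at an unadjusted p under 0.05). That count was 3 without MOF cKO 5 and 79 without MOF cKO 6, where 1.44% and 16.9% of all genes were called higher.

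Within epithelial-gated cells the share was spread over cells in different ways. In the E15.5 controls the median cell had 29.4% and 30.02% ribosomal protein UMIs, and the 90th percentile was 34.3% and 34.7%. In MOF cKO 5 the median was 37.9%. In MOF cKO 6 the median, 27.8%, was below both controls, while the 90th percentile, 38.8%, was above both. The E16.5 medians were 24.3% and 31.7% (controls) and 36.5% and 36.2% (MOF cKO).

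**Figure D3:**
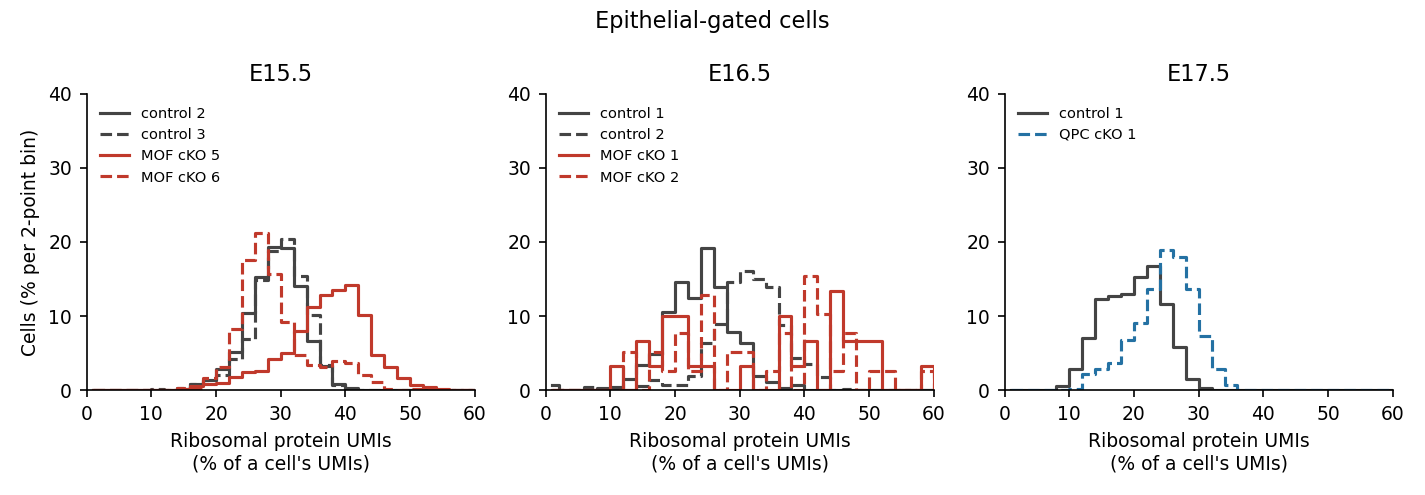
Distribution of the ribosomal protein share of single epithelial-gated cells (x axis, % of a cell's UMIs; y axis, % of cells per bin of 2 points) for each library at E15.5, E16.5 and E17.5, with controls in grey, MOF cKO in red and QPC cKO in blue. MOF cKO 5 is shifted to a median of 37.9%, and MOF cKO 6 has its main peak below the controls with a tail beyond 35%.

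A limit of 35% was set after these distributions were seen, to describe the tail. At or over it were 7.21% and 8.36% of epithelial-gated cells in the E15.5 controls, 68.1% (723 of 1061; 95% Wilson interval 65.3% to 70.9%) in MOF cKO 5 and 15.7% (259 of 1648; 14.0% to 17.6%) in MOF cKO 6. With a limit of 40% the shares were 0.266% and 0.104% in the controls, 35.3% in MOF cKO 5 and 7.28% in MOF cKO 6. The class is a range of a continuous share, and between 114 and 554 cells per library at E15.5 (3 to 133 at E16.5) lay within 2 points of the limit. At E16.5 the class held 1.88% and 24.6% of the control cells, and 56.7% (17 of 30) and 51.3% (20 of 39) in the MOF cKO libraries. Intervals cover counting error only.

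The cells over and under this limit in MOF cKO 6 also differed in genes outside the family. Such genes enter the limit only through a cell's total UMIs. On the scale of UMIs per 1000000 UMIs that were not ribosomal protein, 12 genes of nucleolar stress and the p53 response summed to 2137 in the cells over it and to 822 in the cells under it. In MOF cKO 5 the same sums were 2567 and 1705. In the controls they were 876 and 863 over the limit and 816 and 806 under it, so the sum was higher over it there too, with a smaller gap. The median cell of MOF cKO 6 had 18.7 such UMIs per 10000 over the limit and 7.54 under it. Ccng1, a p53 target, was on this scale at 245 and 44.6 in the 2 classes of MOF cKO 6, against 25.6 to 28.6 in either class of the controls. Kat8, the targeted gene, was at 32.9 over the limit (91 UMIs) and 11.65 under it (255 UMIs) in MOF cKO 6. In MOF cKO 5 it was at 23.9 and 15.49. In the controls it was at 16.7 and 18.3 over the limit and 18.3 and 19.8 under it. Kat8 counts were thus not lower over the limit in MOF cKO 5 or 6. Whether the cells over it carried the deletion was not tested. The 79 mitochondrial ribosomal proteins summed to 6040 over the limit and 8741 under it in MOF cKO 6. In MOF cKO 5 they summed to 6505 and 6267, and in the E15.5 controls to 8599 to 9225. At E16.5, where 78 were listed, the sums over and under the limit were 6009 and 3025 in MOF cKO 1. They were 6020 and 5856 in MOF cKO 2, with 13 to 20 cells per class in these 2 libraries. Cells are not replicates, and no test was made of these classes. The cells over the limit also had fewer UMIs in MOF cKO 6 (median 15200 against 20947), as they did in the controls (12870 against 16666 and 15296 against 19209), and the part of depth in the difference was not tested. Cells with collagen at the fibroblast limit made up 0.386% over the limit and 10.8% under it in MOF cKO 6, 2.35% and 35.8% in MOF cKO 5, and 0% against 7.08% and 7.27% in the controls. Cells with suprabasal keratins made up 6.18% and 13.5% in MOF cKO 6, 11.1% and 23.7% in MOF cKO 5, and 1.05% and 6.67%, and 2.07% and 11.6%, in the 2 controls. Their part in the difference was not tested either.

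The ratio of Rpl22l1 to Rpl22 is given for the same cells as a description, since both genes count in the share that set the limit. Rpl22 is a large-subunit protein that binds RNA outside the ribosome, and Rpl22l1 is its close paralogue, which Rpl22 is known to repress. At E15.5, 55.1 and 53.9 Rpl22l1 UMIs were counted per 100 of Rpl22 in the control epithelial-gated cells, 34.4 in MOF cKO 5 and 52.95 in MOF cKO 6. In the latter library the ratio was 32.4 in cells over the 35% limit and 58.1 in cells under it, while the controls had 50.03 to 55.3 in either class. The E16.5 controls had 97.1 and 119, and MOF cKO 1 and 2 had 69.4 and 64.1. In fibroblast-gated cells the ratio was 68.5 and 66.7 (controls) and 68.4 and 70.6 (MOF cKO) at E15.5, and 115 and 135 against 109 and 114 at E16.5. Both MOF cKO libraries were below both controls in epithelial-gated cells at either stage, by less than 1 UMI per 100 in MOF cKO 6. In fibroblast-gated cells both were also below both controls at E16.5, but not at E15.5. With 2 libraries against 2, an exact permutation test cannot reach 0.05, and none is given.

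In levels, Rpl22 was at 1946 and 2018 UPM in E15.5 controls and 2556 and 1984 UPM in MOF cKO 5 and 6, and Rpl22l1 was at 1072 and 1088 UPM against 879 and 1050 UPM. Rpl22l1 and Rpl7l1 were the only 2 of the 81 members with a log2 fold change below 0 at E15.5 (−0.04 and −0.05). Rpl7l1, a paralogue of Rpl7, was at 90.6 and 95.1 UPM in the controls and 75.8 and 89.4 UPM in MOF cKO, and Rpl7 was at 3394 and 3294 UPM against 4104 and 3401 UPM. Per 100 UMIs of Rpl7 there were 2.67 and 2.89 of Rpl7l1 in control libraries, 1.85 in MOF cKO 5 and 2.63 in MOF cKO 6. The E16.5 controls had 3.84 and 3.31 against 1.48 and 1.93 for MOF cKO, the latter from 29 and 64 UMIs. In epithelial-gated cells the groups did not overlap in this ratio at either stage. In fibroblast-gated cells they overlapped at E15.5 (3.01 and 3.32 in control libraries, 3.09 and 2.96 for MOF cKO) and did not at E16.5 (3.95 and 4.17 against 2.80 and 2.52).

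At E16.5, 0 of 82 members were called in epithelial-gated cells, where 5.82% of 9938 genes were (edgeR). At an unadjusted p under 0.05 there were 31 members and 2792 genes. DESeq2 called 7 members, all higher (8.54%), near the 6.82% of all genes it called higher. The fold changes were above 0 for 80 of 82, with a median of 0.88 beside −0.11 over all genes. Scaling by library size alone moved the median of all genes to −0.71 and that of the members to 0.30, with 70 of 82 above 0. Relative to all genes the members' median was thus 0.99 with the main scaling and 1.01 with library size alone. By role, the median was 1.27 for the 4 proteins of the stalk and its base, 0.83 for the 3 of the mRNA entry channel and 0.83 for the 5S RNA partners. It was 0.92 for the 50 large-subunit and 0.87 for the 32 small-subunit members, and 1.09 for the 10 mutated in Diamond-Blackfan anaemia.

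The summed share was 32.8% and 35.1% in MOF cKO against 23.0% and 31.3% in the controls. Both MOF cKO libraries were above both controls, by a difference of means of 6.82 percentage points (2.69 without control 1 and 10.96 without control 2), and control 2 lay nearer to the MOF cKO libraries than to control 1. Without control 2, 65 members were called higher and 1 lower, where 8.36% of all genes were called higher and 5.12% lower. Without control 1, which had the lowest share in both gates, 4 members (4.94%) were called higher, below the 6.36% of all genes. Without cells carrying 10 or more collagen UMIs the shares were 24.8% and 32.2% (controls) and 35.3% and 28.1% (MOF cKO 1 and 2), and the groups overlapped. The MOF cKO sums over all epithelial-gated cells rested on 30 and 39 cells, and those with the collagen limit on fewer. Without cells carrying 10 or more UMIs of the suprabasal keratins Krt1 and Krt10, the shares were 39.9% and 41.1% in MOF cKO against 23.8% and 31.6%. These too rested on fewer cells. Suprabasal markers summed to 10590 and 10216 UPM in MOF cKO and to 9039 and 5443 UPM in the controls. By cell counts the groups lay further apart, on either side of a 35% limit on a cell's share. Cells with 10 or more Krt1 and Krt10 UMIs made up 53.8% and 68.4% under it and 11.8% and 20% over it in MOF cKO 1 and 2. In controls 1 and 2 they made up 10.3% and 11.7% under it and 0% and 2.38% over it. The part of these cells in the result was not tested.

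The 5 members with the smallest p at E16.5 carry large-subunit symbols, 1 of them on a gene annotated as a processed pseudogene. A choice by p favours groups that lie apart, and the edgeR test called none of the 5. Rpl12 was at 2186 and 2246 UPM in the controls and 3487 and 4118 UPM in MOF cKO 1 and 2 (1.37 ± 0.34, adjusted p = 0.0665). Rplp1, a stalk protein, was at 2941 and 4360 UPM against 6930 and 7352 UPM (1.53 ± 0.42, adjusted p = 0.0815). Rpl15 was at 1189 and 1625 UPM against 2453 and 2397 UPM (1.36 ± 0.38, adjusted p = 0.0845). Rpl29 was at 1171 and 1412 UPM against 1615 and 3287 UPM (1.48 ± 0.42, adjusted p = 0.088). Rpl6l, the annotated pseudogene, counted only at this stage, was at 1030 and 629 UPM against 1250 and 1325 UPM (1.26 ± 0.32, adjusted p = 0.069). Rpl6l may share reads with near-identical copies, as may other members with processed pseudogenes.

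Of the remaining stalk and 5S proteins, Rplp2 was at 2217 and 4382 UPM in the controls and 5287 and 4891 UPM in MOF cKO, and Rplp0 at 7043 and 5415 UPM against 6963 and 8419 UPM. Rpl5 was at 1443 and 1347 UPM against 1375 and 1613 UPM, and Rpl11 at 2819 and 3625 UPM against 3874 and 4591 UPM. The groups overlapped for Rplp0 and Rpl5. Among partners of paralogues, Rpl3 was at 3765 and 4203 UPM in the controls and 2810 and 3519 UPM in MOF cKO, so that its share of UMIs was lower while its fitted log2 fold change was 0.25. Rpl10 was at 4356 and 4242 UPM against 4051 and 4736 UPM, and Rps4x at 5576 and 5701 UPM against 4942 and 6105 UPM, both overlapping. Rpl39l had the lowest fold change (−2.16), at 36.3 and 6.6 UPM in the controls against 3.5 and 2.5 UPM in MOF cKO. The MOF cKO values were 2 UMIs each, and the higher control was the library with collagen-bearing cells.

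In fibroblast-gated cells at E16.5, 0 of 82 members were called (edgeR), where 4.64% of 12569 genes were. At an unadjusted p under 0.05 there were 11 members and 3172 genes. DESeq2 called 3 members, all higher (3.66%), where it called 4.3% of all genes higher. The median was 0.41 with 77 of 82 above 0 (68 with library size alone), beside 0.01 over all genes. The shares were 28.8% and 27.3% in MOF cKO against 22.1% and 25.3% in the controls. Rpl15 had the smallest p among the members, at 2309 and 2056 UPM against 1068 and 1270 UPM (1.02 ± 0.22, adjusted p = 0.0615). Rpl10 was at 5389 and 5890 UPM against 4613 and 3901 UPM (0.54 ± 0.16, adjusted p = 0.12). The genes of the dissociation response moved with the groups here, with a median of 0.75 and 3 of 13 called higher, and their part in the result was not tested.

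The difference in effect between the 2 cell types at E16.5 called 0 of 82 members, where 0.38% of 13169 genes were called. At an unadjusted p under 0.05 there were 18 members and 2652 genes. Its smallest p belonged to Rplp1 (0.94 ± 0.24, adjusted p = 0.121), and without control 2 it called 48 members higher and 1 lower, where 3.39% of all genes were called higher and 6.15% lower. The difference in epithelial effect between E16.5 and E15.5 called 0 of 81 members, where 0.11% of 13602 genes were called, and 1 member (Rpl39l) and 2211 genes had an unadjusted p under 0.05.

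**Figure D4:**
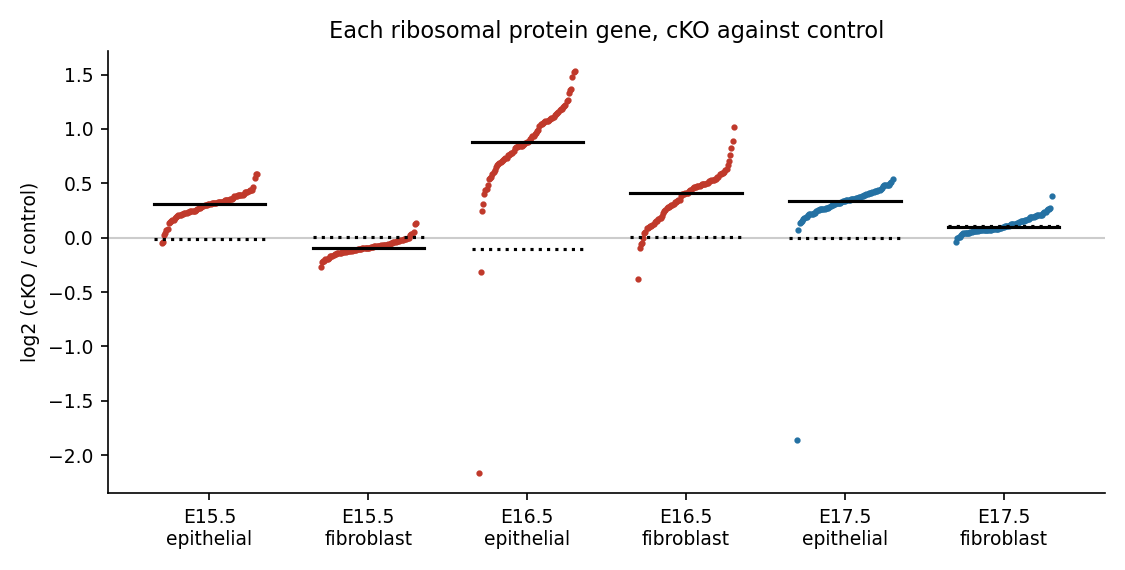
Log2 ratio of cKO to control (y axis) for each ribosomal protein gene, sorted within each stage and cell type (x axis), from the fitted test at E15.5 and E16.5 (red) and as the ratio of 1 library to 1 at E17.5 (blue), with a solid line at the members' median and a dotted line at the median of all genes. The members' median is 0.31 and 0.88 in epithelial-gated cells at E15.5 and E16.5, and −0.09 and 0.41 in fibroblast-gated cells. At E17.5 it is 0.34 and 0.10.

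The members differed among themselves by coding length, and did so between libraries of one genotype. Between the 2 E16.5 control libraries, the log2 ratio of control 1 to control 2 in epithelial-gated cells correlated with the log2 of the longest annotated coding sequence at Pearson r = 0.75 and Spearman rho = 0.85 over 80 members. Short members such as Rpl35 (coding length 369 nt) and Rpl36 were lower in control 1 by 1.88 and 1.22 (log2), whereas Rplp0 was higher by 0.38. The ratio of MOF cKO 2 to MOF cKO 1, from other libraries, showed the same pattern (r = 0.72, rho = 0.77). The 2 ratios correlated with each other at r = 0.70 and rho = 0.76 over 81 members. Which library of a pair is divided by the other is arbitrary, so the shared sign of these correlations carries no information. In fibroblast-gated cells the correlations with coding length were rho = 0.87 and 0.73. These are descriptions over genes of 4 libraries that share cells, depth and processing within each library, and the genes are not independent replicates.

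The cKO to control ratios carried part of this pattern. At E16.5 they correlated with coding length at rho = −0.59 in epithelial-gated and −0.66 in fibroblast-gated cells, and at E17.5 at rho = −0.53 and −0.75. For MOF cKO 5 against its controls the correlation was rho = 0.18 in epithelial-gated cells and 0.38 in fibroblast-gated cells. The order of single members within the E16.5 and E17.5 comparisons thus moved with coding length in both cell types, and the part of library preparation in it was not tested.

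**Figure D5:**
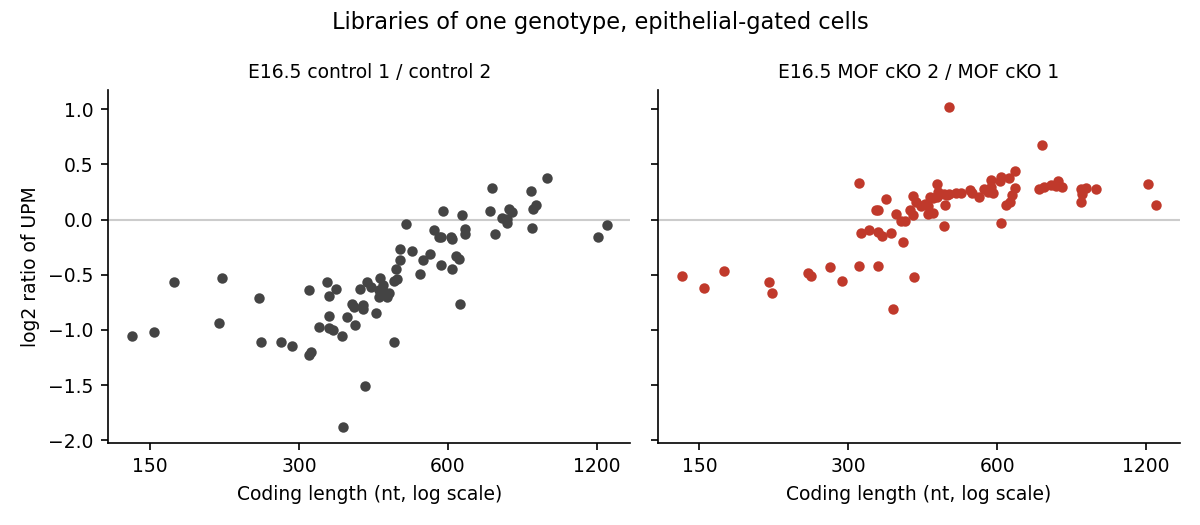
Log2 ratio of UPM between 2 libraries of one genotype at E16.5 (y axis) against longest annotated coding length (x axis, nucleotides, log scale) for 80 members in epithelial-gated cells, for control 1 over control 2 (left, grey) and MOF cKO 2 over MOF cKO 1 (right, red). In both panels, with the order of the 2 libraries in each ratio arbitrary, short members lie lower than long ones (rho = 0.85 and 0.77).

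At E17.5 the QPC comparison had 1 library per group and therefore no test. The summed share in epithelial-gated cells was 19.9% in the control and 24.9% in QPC cKO. Of 81 members with at least 100 UMIs in either library, 44 were at least 1.25-fold higher in QPC cKO, where 16.9% of 13024 genes were, and 1 was at least 1.25-fold lower, where 28% of all genes were. Without cells carrying 10 or more collagen UMIs, 9 of 80 members were at least 1.25-fold higher, where 7.4% of 10958 genes were, and the shares were 22.5% and 25.6%. The members' median log2 ratio was 0.19, rather than 0.34 with all gated cells. Leaving out the shared barcodes gave 44 members (16.4% of all genes), and leaving out both gave 8 (10% of members, near the 7.26% of all genes). Under 5% mitochondrial UMIs 63 members were at least 1.25-fold higher, where 26.1% of all genes were. In fibroblast-gated cells 1 of 81 members was at least 1.25-fold higher, where 21.5% of 12289 genes were, with shares of 16.8% and 18.0%.

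Rpl22l1 had the highest ratio at E17.5. It was at 863 UPM in the control and 1253 UPM in QPC cKO, a ratio of 1.45 (exact 95% interval for counting error 1.43 to 1.47), and at 1.47 without collagen-bearing cells. Per 100 UMIs of Rpl22 there were 64.3 and 73.3 of Rpl22l1. Rps29, a small zinc-binding protein, had a ratio of 1.42 (2175 and 3094 UPM), and Rpl35, at the tunnel exit, a ratio of 1.41 (1289 and 1822 UPM). Rps26 and Rpl37 followed at 1.40 each. Without collagen-bearing cells the ratio was 1.302 for Rps29, 1.27 for Rpl35, 1.21 for Rps26 and 1.24 for Rpl37. The coding lengths of these 5 members were 168 to 369 nt, all below the members' median of 468 nt.

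At the other end, Rpl10, which joins the large subunit late in its maturation, had a ratio of 1.05 (2715 and 2858 UPM), Rpl7a of 1.10, Rpl15 of 1.11 and Rps27l of 1.11. Without collagen-bearing cells these ratios were 1.02, 1.001, 0.998 and 1.05. Rpl39l was the only member at least 1.25-fold lower, at 29.1 and 8.0 UPM (ratio 0.275, interval 0.239 to 0.315). Without collagen-bearing cells it was at 1.16 and 0.444 UPM from 32 and 11 UMIs. In fibroblast-gated cells it was at 65.3 and 85.1 UPM. Rplp0, Rplp1, Rplp2, Rpl12, Rpl5 and Rpl11 were at 5361, 3836, 2341, 2860, 2329 and 2893 UPM in QPC cKO, each above its control value of 4759, 3292, 1732, 2043, 1818 and 2479 UPM. Without collagen-bearing cells their ratios were 1.05, 1.13, 1.21, 1.24, 1.13 and 1.06.

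Genes of the same machinery outside the symbol rule were read beside the members. Fau and Rack1, which also encode ribosomal proteins, were not called at either stage. Fau was at 1791 and 3285 UPM in the E16.5 control epithelial-gated cells and 3781 and 3823 UPM in MOF cKO (1.14 ± 0.46, adjusted p = 0.169). Rack1 was at 1931 and 1593 UPM against 1928 and 2309 UPM, and the groups overlapped.

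The dissociation response had 2 of 14 genes called higher in epithelial-gated cells at E16.5 (median 0.26), and its part in the results there was not tested. In these cells 4.68% of all genes were called higher and 1.14% lower. Most other lists of the translation machinery gave few calls in epithelial-gated cells at E16.5 (edgeR). None of 11 elongation and termination factors was called (median 0.64), nor any of 14 genes of RNA polymerase I and its factors (−0.38), nor any of 20 further mRNAs with a pyrimidine tract (0.56). Of 37 initiation factors 1 was called, Eif1b, a start-codon selection factor, which fell by 1.70 (adjusted p = 0.0319). Of 43 ribosome biogenesis genes 1 was called, Nhp2, a protein of box H/ACA snoRNPs, which rose by 1.3 (adjusted p = 0.0484). Of 5 snoRNA host genes tested 1 was called, Snhg9, which rose by 2.97 (adjusted p = 0.0309), and of 15 genes of mTORC1 and Myc 2 rose, Eif4ebp1, a brake on cap-dependent initiation, by 2.15 and the S6 kinase Rps6kb2 by 1.67 (adjusted p = 0.0357 and 0.0403). In the E15.5 comparison 0 genes of any of these lists were called.

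Of 11 genes of nucleolar stress and the p53 response, 7 rose at E16.5 (median 1.95), among them Ccng1 by 2.49 ± 0.32, Trp53inp1 by 2.76 and the cell cycle inhibitor Cdkn1a by 3.18 (adjusted p = 0.0145, 0.0148 and 0.017). In fibroblast-gated cells 0 of 11 were called. Ccng1 was at 31.9 and 18.9 UPM in control epithelial-gated cells and 96.9 and 86.2 UPM in MOF cKO. Of 78 mitochondrial ribosomal proteins, 2 fell in epithelial-gated cells, Mrpl3 by 1.82 and Mrpl35 by 1.64 (adjusted p = 0.0376 and 0.0442). The list's median there was −0.66, where that of the cytosolic proteins was 0.88 and that of all genes −0.11. The untargeted fibroblast-gated cells leaned the same way, with medians of −0.31, 0.41 and 0.01. In fibroblast-gated cells, where 2.21% of all genes were called lower, 1 of 78 fell, and 8 of 43 ribosome biogenesis genes fell (median −0.45).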

How the data were processed

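The deposited files hold UMI counts per gene and cell from the 10x 3′ assay, written by the authors with Cell Ranger (version 6.1.2 in the headers at E15.5 and E17.5; the submitters' notes also list 1.3.1, and the E16.5 headers name none) on mm10. Library totals ran from 13609345 to 203392303 UMIs. Counts of gated cells were summed per library and tested with edgeR 4.0.16 (filterByExpr, TMM, quasi-likelihood test, Benjamini-Hochberg adjustment over all genes tested), with DESeq2 1.42.0 as an alternative. The test was run on simulated counts of independent genes with the same dispersion for all genes and no outlying library. That setting does not cover the shared shifts between libraries seen here. No doublet caller was run, and no correction was made for free RNA. The genes and lists were chosen with earlier results of these data known. Named genes were, per comparison, the 5 largest rises and falls past the threshold or else the 5 smallest p, the extremes at E17.5, the 5 highest levels, all stalk, 5S and paralogue genes, and up to 3 genes per further list. Exact Poisson and binomial intervals, at 95%, cover counting error only. At E16.5, groups shared replicate numbers, but the labels do not say that a number marks a litter or day. Replicate number therefore entered only as an alternative block. Other gates, scalings and left-out libraries were tried as alternatives. Start sites came from RefSeq (GRCm38.p6), coding lengths from GENCODE M21. No protein sequence was used here. Values of some named genes are not reported here.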

Additional observations from a re-analysis of the deposited data

Results flagged for a closer look

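In fibroblast-gated cells the summed share of ribosomal protein UMIs moved in opposite directions at the 2 stages. Both MOF cKO libraries were below both controls at E15.5, by a difference of means of −0.831 percentage points, and above both controls at E16.5, by 4.35 percentage points. The E15.5 difference was −0.272 points without MOF cKO 6 and −1.39 without MOF cKO 5, and the E16.5 difference was 2.74 points without control 1. This difference between the stages was not tested, and stage, gene table and processing cannot be told apart.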

How the results depend on the processing

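Of 266 alternative values, 206 were labelled as unchanged, by the replicate spread or by 1.5 times the main count, while 58 moved and 2 reversed. Many of the 206 were counts of 0 where the main count was also 0, and these say little about stability. The QPC comparison had 1 library per group and so no replicate spread, and its share differences cannot be judged against one. No cause was tested beyond the fewer cells or libraries each alternative leaves. Leaving out 1 library in turn gave 0 to 76 (epithelial E15.5, main 0), 0 to 65 (epithelial E16.5, main 0), 0 to 1 (fibroblast E16.5, main 0), 0 to 79 and 0 to 48 (compartment difference at E15.5 and E16.5, main 0) and 14 to 72 members higher (controls, main 56), and 0 to 1 (epithelial and compartment difference at E16.5, main 0) and 1 to 2 (controls, main 2) members lower. The members' median ranged from −0.037 to 0.58 and from −0.17 to −0.0068 (epithelial and fibroblast E15.5), from 0.55 to 1.42 and from 0.14 to 0.70 (E16.5). The share difference in epithelial-gated cells at E15.5 ranged from −0.369 to 6.93 points and at E16.5 from 2.69 to 10.96, that in fibroblast-gated cells from −1.39 to −0.272 and from 2.74 to 5.97, and both reversals came without MOF cKO 5.

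At E16.5, DESeq2 called 7 (epithelial) and 3 (fibroblast) members higher (8.54% and 3.66%, beside 6.82% and 4.3% of all genes), no filter 6 higher and 1 lower (7.23% and 1.2%, beside 5.8% and 6.03%; epithelial) and 4 higher (4.88% beside 4.84%; fibroblast), the gate of 30 keratin UMIs 3 higher (3.7% beside 9.48%), and library size alone 1 higher in fibroblast-gated cells (1.22% beside 2.75%), with medians of 0.30 in both gates. DESeq2 called 1 member lower in fibroblast-gated cells at E15.5. In the controls, library size alone, no filter and the gate without collagen (chosen after seeing the data) each left 1 member lower. Among all genes, 4418 of 14505, 4250 of 21177 and 4613 of 14017 were called lower in these fits. Without suprabasal cells the epithelial share difference at E16.5 was 12.8 points.

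At E17.5 the epithelial share difference, 5.06 points, was 3.17 with the limit on collagen, 3.09 with the 30 UMI gate, 6.1 under 5% mitochondrial UMIs, 3.97 in cells of 5000 to 20000 UMIs, 5.33 without suprabasal cells, 4.81 as a mean over cells and 5.54 without mitochondrial UMIs. Without shared barcodes (chosen after seeing the data) it was 5.02, and 3.12 with the collagen limit too. In fibroblast-gated cells, 1.23 points became 1.29 under 5% mitochondrial UMIs, 0.961 at 5000 to 20000 UMIs, 1.20 without shared barcodes, 1.18 as a mean over cells and 1.33 without mitochondrial UMIs. Members at least 1.25-fold higher, 44 with all gated cells, numbered 63 under 5% mitochondrial UMIs (26.1% of all genes), 50 without suprabasal cells (18.8%), 9 with either stricter gate (7.4% and 7.54%), 8 without shared barcodes and collagen (7.26%), and 27 (15.9%; 0 in fibroblast-gated cells) at 5000 to 20000 UMIs.

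With the replicate block at E16.5, 0 members were called in either gate and the medians were 0.95 and 0.45, so the block changed no member's call. Deviations of same-numbered libraries from their group means correlated at −0.0169 and −0.0215 over the genes tested (epithelial and fibroblast). With 2 libraries per group, this cannot tell whether a number marks a shared litter, day or run. Over all genes the block gave 446 higher and 103 lower (epithelial, 465 and 113 without it) and 349 and 227 (fibroblast, 305 and 278).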
